A study of Mus musculus with 12 samples.

Results

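The 39 genes of the 4 Hox clusters were followed in RNA-seq of 6 mouse liver cancer cell lines, out of 47729 genes in the count tables. Members were all genes whose symbol is Hoxa, Hoxb, Hoxc or Hoxd followed by a number, which gave 11 genes of the Hoxa cluster, 10 of Hoxb, 9 of Hoxc and 9 of Hoxd. Lines M1, M2 and M3 came from lymph node metastases and lines T1, T2 and T3 from primary liver tumours, and each was treated for 48 h with 2 µM PLX4720, a BRAF inhibitor, or with DMSO, its solvent. All 6 lines carry BRAFV600E with p53 KO in the labels, so no group lacks these changes, and the design text places BRAFV600E in hepatocytes, with deletion of Trp53 or Cdkn2a. Each line gave 1 library per treatment, so replicates are separate lines, 3 per site. Table names give T3, M2 and M3 the same number, and whether these 3 lines share an animal is not stated in the labels.

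Hox genes encode homeodomain transcription factors that give cells their position along the head-to-tail axis of the embryo. Within each cluster the genes lie in a fixed order, and low-numbered (anterior) paralogs are switched on earlier and nearer the head than high-numbered (posterior) ones, a relation known as colinearity. Trithorax proteins keep active Hox genes on and Polycomb proteins keep silent ones off, and connective tissue cells of the adult body keep a Hox pattern that reflects where they arose. Proteins of the Pbx and Meis families bind DNA together with Hox proteins.

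Libraries held 31992512 to 39288748 counted fragments. Levels are given as CPM (counts scaled to a common library size) after TMM scaling, and as CPM per kb of exon where genes are compared with each other. The labels call all lines liver tumour cells, and markers of cell types differed strongly between the sites. Of 8 hepatocyte markers, 1 reached 1 CPM in a metastasis library under DMSO, where their summed level was 0.238 to 3.13 CPM and Alb, Ttr, Serpina1a and Cps1 were at 0. In primary lines under DMSO, 7 of 8 reached 1 CPM and the sum was 164 to 276 CPM. Most of it was Hnf4a, at 141, 151 and 250 CPM in T1, T2 and T3, and in T2 only Hnf4a and Afp reached 1 CPM. In these lists a marker counts if it reached 1 CPM in any library of the group. Of 10 stellate cell and fibroblast markers, 7 reached 1 CPM in metastasis lines under DMSO, with a sum of 2217 to 5341 CPM and Lrat and Des at 0, against 3 of 10 and 3.30 to 11.6 CPM in primary lines, with Lrat, Lum and Thy1 at 0. Of 5 mesothelial markers, 2 reached 1 CPM in metastasis lines under DMSO, with a sum of 0.268 to 6.38 CPM. In primary lines under DMSO 5 did, with a sum of 1331 to 1508 CPM, mostly Krt19, also a biliary marker, and Msln. Wt1 and Gpm6a reached 1 CPM there in T3 alone. Of 6 biliary markers, 3 reached 1 CPM in metastasis lines under DMSO (sum 4558 to 9099 CPM, mostly Spp1), against 5 in primary lines (sum 2519 to 5240 CPM). Lymph node stroma markers summed to 67.3 to 95.7 CPM in metastasis lines under DMSO, against 0.395 to 3.23 CPM in primary lines, with Pdpn the one above 1 CPM and Ccl21a at 0 throughout. Endothelial markers summed to 0.493 to 1.13 CPM in metastasis lines under DMSO and to 0.316 to 75.0 CPM in primary lines. Leukocyte markers summed to 2.86 to 3.00 CPM in metastasis lines under DMSO and to 2.23 to 5.18 CPM in primary lines. The share of mitochondrial fragments was 3.67% in T3 under PLX4720 and 0.189% to 0.712% elsewhere, and it was higher under PLX4720 than under DMSO in all 6 lines. In such bulk libraries fewer cells of a type and less RNA per cell cannot be told apart.

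Of the 39 Hox genes, 5 had no fragment in any library (Hoxc12, Hoxd1, Hoxd11, Hoxd12 and Hoxd13) and Hoxb1 had 1 fragment in all. The other 33 exceeded 3 fragments in at least 1 library. All 3 posterior Hoxd genes from Hoxd11 to Hoxd13 were therefore undetected in both sites.

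Metastasis lines carried far more Hox RNA than primary lines. Under PLX4720 the 39 genes summed to 235, 197 and 241.6 CPM in M1, M2 and M3, against 56.9, 2.26 and 16.3 CPM in T1, T2 and T3. Under DMSO the sums were 200 CPM in M1, 206 in M2 and 204 in M3, against 41.7 in T1, 1.97 in T2 and 14.8 in T3. The 3 metastasis lines lay close together in total, and the primary lines were spread over a wide range, with T2 almost devoid of Hox RNA: 75 Hox fragments in its DMSO library of 37431484.

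**Figure D1:**
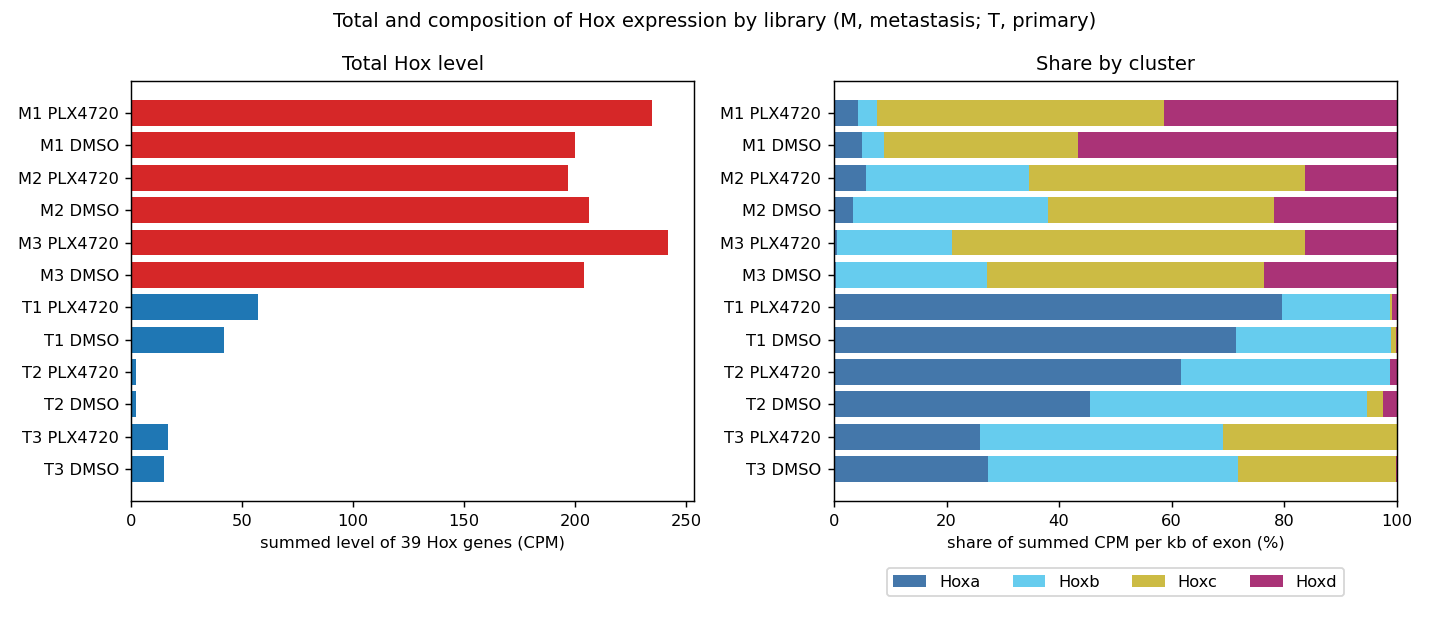
Left, summed level of the 39 Hox genes (CPM) in each of 12 libraries, metastasis lines in red and primary lines in blue. Right, share of each cluster in the summed CPM per kb of exon. Each bar is 1 library; Hoxc and Hoxd fill most of every metastasis bar, while Hoxa and Hoxb fill most of every primary bar.

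The clusters in use differed too. Under DMSO the Hoxd cluster held 56.6% of the summed CPM per kb in M1, 21.7% in M2 and 23.5% in M3, against 0.217% in T1, 2.45% in T2 and 0.163% in T3. Hoxc held 34.4%, 40.2% and 49.3% in M1, M2 and M3, against 0.848%, 2.78% and 28.1% in T1, T2 and T3. Hoxa held 5.03%, 3.47% and 0.341% in M1, M2 and M3, against 71.5%, 45.5% and 27.4% in T1, T2 and T3. T2 shares rest on the 75 fragments above. T3 was the primary line with a sizeable Hoxc share, and M1 the metastasis line with a small Hoxb share, 3.90% against 34.6% in M2 and 26.8% in M3.

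**Figure D2:**
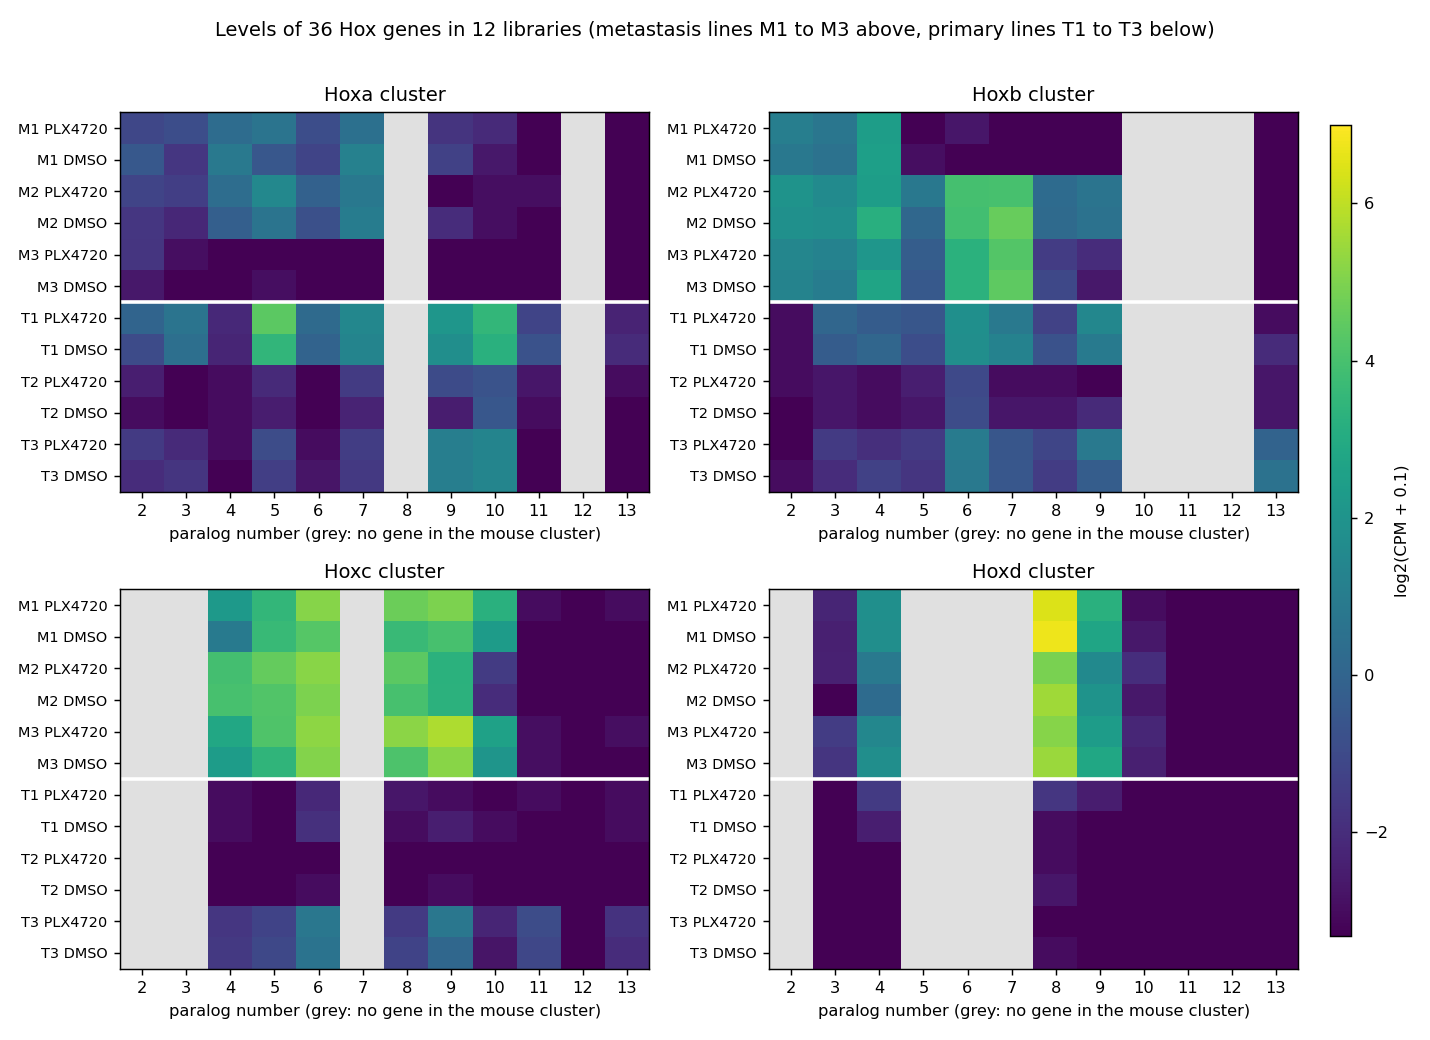
Level of 36 Hox genes (paralogs 2 to 13) as log2(CPM + 0.1), 1 panel per cluster, paralog number along the x axis and 1 row per library, metastasis lines above the white line. Grey columns are paralogs that the mouse cluster lacks. The metastasis rows are bright from Hoxc4 to Hoxc9 and at Hoxd8, and those of T1 and T3 at Hoxa9, Hoxa10 and Hoxb6.

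By paralog number, the middle genes (paralogs 4 to 8) held 81.1%, 89.8% and 74.8% of the summed CPM per kb in M1, M2 and M3 under DMSO, against 66.5%, 54.1% and 49.0% in T1, T2 and T3. Paralogs 9 to 13 held 16.2%, 7.59% and 23.5% in M1, M2 and M3, against 25.5%, 37.9% and 47.8% in T1, T2 and T3. Groups did not overlap on either share under DMSO. Under PLX4720, paralogs 9 to 13 held 24.4%, 7.51% and 27.8% in M1, M2 and M3, against 22.2%, 35.1% and 49.96% in T1, T2 and T3, and the groups overlapped. Paralogs 4 to 8 held 72.9%, 89.2% and 70.4% in M1, M2 and M3 under PLX4720. In T1, T2 and T3 they held 69.3%, 53.9% and 46.5%, so on this share the groups did not overlap.

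At 1 CPM or more, 11 genes were present in all 3 metastasis lines under both treatments: Hoxb2, Hoxb3, Hoxb4, Hoxc4, Hoxc5, Hoxc6, Hoxc8, Hoxc9, Hoxd4, Hoxd8 and Hoxd9. No Hox gene reached 1 CPM in all 3 primary lines. Under DMSO, Hoxa3, Hoxa9, Hoxa10 and Hoxb13 reached 1 CPM in a primary line and in no metastasis line. Under PLX4720 these were Hoxa3, Hoxa6, Hoxa9 and Hoxa10.

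Hoxd8, which lies in the middle of its cluster on chromosome 2 (GRCm38, 74704615 to 74707933, plus strand), had the highest CPM per kb of all Hox genes in each metastasis library under DMSO: 38.9 in M1, 16.6 in M2 and 15.7 in M3. Its count was 88.2, 30.7 and 35.0 CPM in M1, M2 and M3 under PLX4720, and 107, 45.5 and 43.1 CPM under DMSO. In T1, T2 and T3 it was 0.209, 0.0272 and 0 CPM under PLX4720, and 0.0278, 0.0526 and 0.0252 CPM under DMSO, that is 4 fragments in the 3 DMSO libraries together. The sites were far apart, and M1 stood above M2 and M3.

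Its neighbour Hoxd9 (chromosome 2, 74697727 to 74700208) measured 6.53, 3.87 and 7.05 CPM in M1, M2 and M3 under DMSO and had no fragment in the primary lines there. Under PLX4720 it measured 9.36, 2.91 and 5.14 CPM in M1, M2 and M3, against 3 fragments in T1 and 0 in T2 and T3. Hoxd4, further towards the anterior end (74711929 to 74729160), measured 3.37, 1.13 and 3.31 CPM in M1, M2 and M3 under DMSO, against 0.0835 CPM in T1 and 0 in T2 and T3. Of its exon bases, 52.3% also belong to Hoxd3, to the antisense gene Hoxd3os1 or to Gm28230, and the recorded counting command holds no strand option, so these fragments cannot be fully assigned. Hoxd8, Hoxd9 and Hoxd4 made up nearly all Hoxd RNA: Hoxd3 and Hoxd10 reached at most 0.262 and 0.152 CPM in any library.

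In the Hoxc cluster on chromosome 15, the metastasis lines expressed an unbroken run of genes from Hoxc4 to Hoxc9. Hoxc6 (102998257 to 103011881, plus strand) measured 19.2, 31.0 and 33.6 CPM in M1, M2 and M3 under DMSO, against 0.167, 0.0263 and 1.44 CPM in T1, T2 and T3. Hoxc9 (102976439 to 102985099) measured 16.0, 9.87 and 35.8 CPM in M1, M2 and M3, against 0.0835, 0.0263 and 0.982 CPM in T1, T2 and T3. The groups did not overlap for either gene, and T3 was the highest primary line for both.

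Hoxc8 (102990607 to 102994111) measured 12.6, 15.9 and 17.2 CPM in M1, M2 and M3 under DMSO, against 0.0278, 0 and 0.327 CPM in T1, T2 and T3. Hoxc5 (102967443 to 103017429) measured 12.2, 18.3 and 10.7 CPM in M1, M2 and M3, against 0 in T1 and T2 and 0.378 CPM in T3, and 5.37% of its exon bases are shared with Hoxc10. Hoxc4 (103018934 to 103036852) measured 1.76, 16.0 and 5.17 CPM in M1, M2 and M3, against 0.0278, 0 and 0.227 CPM in T1, T2 and T3. All 3 genes were above every primary library in every metastasis library.

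The posterior edge of the Hoxc run differed between metastasis lines. Hoxc10 measured 9.33, 0.242 and 5.93 CPM in M1, M2 and M3 under PLX4720, and 4.92, 0.149 and 4.09 CPM under DMSO. Hoxc11 and Hoxc13 had 0 or 1 fragment in each metastasis library. In T3 Hoxc11 had 16 fragments under PLX4720 and 14 under DMSO, and Hoxc13 had 7 and 6.

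In the Hoxb cluster on chromosome 11, the anterior genes were shared by the metastasis lines and the middle ones were not. Hoxb4 (96318267 to 96321638, plus strand) measured 5.55, 8.98 and 6.39 CPM in M1, M2 and M3 under DMSO, against 0.974, 0.0263 and 0.302 CPM in T1, T2 and T3. Hoxb2 (96350525 to 96354012) measured 1.67, 3.48 and 2.32 CPM in M1, M2 and M3, against 0.0278, 0 and 0.0252 CPM in T1, T2 and T3. Of the exon bases of Hoxb2, 27.3% overlap the antisense gene Hoxb3os, and of those of Hoxb3, 52.9%.

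Hoxb7 measured 24.5 CPM in M2 and 21.8 CPM in M3 under DMSO and had no fragment in M1, against 2.31, 0.0526 and 0.604 CPM in T1, T2 and T3. Hoxb6 measured 14.6 CPM in M2, 9.69 CPM in M3 and 0 in M1, against 3.34, 0.421 and 1.71 CPM in T1, T2 and T3. M1 held no more than 2 fragments of any gene from Hoxb5 to Hoxb9 in either library, although Hoxb2, Hoxb3 and Hoxb4 next to them exceeded 1 CPM there. The groups therefore overlapped for Hoxb6 and Hoxb7, with M1 below every primary line. Per kb, Hoxb6 led the Hoxb cluster in all 3 primary lines under DMSO, and Hoxb7 led it in M2 and M3 and Hoxb4 in M1.

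Hoxb13, the most posterior Hoxb gene, had no fragment in the metastasis lines. It measured 0.0261, 0.0544 and 0.882 CPM in T1, T2 and T3 under PLX4720, and 0.139, 0.0526 and 1.38 CPM under DMSO. T3 was alone in reaching 1 CPM.

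The Hoxa cluster on chromosome 6 was the one with higher levels in primary lines. Hoxa10 (52231197 to 52240854, minus strand) measured 0.0596, 0.0297 and 0 CPM in M1, M2 and M3 under DMSO, against 9.24, 0.605 and 2.47 CPM in T1, T2 and T3. Hoxa9 measured 0.298, 0.149 and 0 CPM in M1, M2 and M3, against 3.31, 0.0789 and 2.04 CPM in T1, T2 and T3. Hoxa10 did not overlap between the sites, and Hoxa9 did under DMSO through T2.

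Hoxa5 (52201754 to 52204587, minus strand) had the highest CPM per kb of all Hox genes in T1. It measured 1.45, 2.73 and 0 CPM in M1, M2 and M3 under PLX4720 and 0.596, 1.49 and 0.0290 CPM under DMSO. In T1, T2 and T3 it was 21.02, 0.136 and 0.427 CPM under PLX4720 and 10.9, 0.0789 and 0.277 CPM under DMSO. T1 stood far above the rest, and M3 was the lowest. M3 had at most 1 fragment in either library of each gene from Hoxa3 to Hoxa13. In M1 and M2, Hoxa4 and Hoxa7 lay between 0.773 and 2.21 CPM.

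The stretch before the start of 4 genes is shown as examples. Hoxd8 and Hoxb4 had higher levels in metastasis lines, though in the tests below Hoxb4 passed the threshold between sites under PLX4720 only. Hoxa10 had lower levels in metastasis lines. Hoxa5 changed with PLX4720 over all 6 lines, but did not pass without T1. Each run is the 250 bases upstream of a transcript start in RefSeq (GRCm38.p6), read 5′ to 3′ on the gene's strand, and capitals mark matches to the motifs named below on either strand. Hoxa10 had a second start, whose stretch (chr6:52234940-52235189) held 1 TATAAA and 1 CCAAT match and is not shown.
Hoxd8 (chr2:74704365-74704614, plus strand): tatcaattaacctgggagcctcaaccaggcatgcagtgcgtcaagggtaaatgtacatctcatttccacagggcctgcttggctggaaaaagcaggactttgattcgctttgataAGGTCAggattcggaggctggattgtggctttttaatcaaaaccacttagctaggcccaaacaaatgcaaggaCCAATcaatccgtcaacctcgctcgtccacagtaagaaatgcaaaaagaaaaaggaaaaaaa
Hoxb4 (chr11:96318017-96318266, plus strand): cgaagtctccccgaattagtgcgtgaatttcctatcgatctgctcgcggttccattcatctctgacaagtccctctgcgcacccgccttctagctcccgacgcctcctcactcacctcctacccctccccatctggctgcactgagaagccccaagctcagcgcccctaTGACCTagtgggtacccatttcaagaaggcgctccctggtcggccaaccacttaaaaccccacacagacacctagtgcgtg
Hoxa10 (chr6:52240855-52241104, minus strand): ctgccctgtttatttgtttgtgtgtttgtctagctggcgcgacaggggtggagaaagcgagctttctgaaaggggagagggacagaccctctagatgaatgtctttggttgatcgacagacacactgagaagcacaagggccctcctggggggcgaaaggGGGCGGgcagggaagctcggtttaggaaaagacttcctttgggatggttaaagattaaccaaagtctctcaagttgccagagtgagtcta
Hoxa5 (chr6:52204588-52204837, minus strand): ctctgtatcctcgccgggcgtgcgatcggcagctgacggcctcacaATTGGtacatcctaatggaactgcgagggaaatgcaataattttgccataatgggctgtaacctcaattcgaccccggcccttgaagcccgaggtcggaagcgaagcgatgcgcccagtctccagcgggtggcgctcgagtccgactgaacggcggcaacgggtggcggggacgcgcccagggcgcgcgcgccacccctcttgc

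RefSeq windows were found for 22 of the 39 genes, with 24 starts. Motifs searched on both strands were the core TATAAA of promoters, the box known as CCAAT, the GC box with letters GGGCGG, the nuclear receptor element AGGTCA, the AP-1 motif TGACTCA, the caudal and posterior Hox motif TTTATG and the joint Hox and Pbx motif TGATTNAT. Among the 24 Hox windows, CCAAT was in 14, against 33.8% of all 32851 windows, and GGGCGG in 10, against 32.7%. AGGTCA was in 6, against 14.0% of all windows, TTTATG in 5, against 10.8%, and TATAAA in 4, against 12.4%. TGATTNAT was in 2 and TGACTCA in 1, against 2.82% and 4.46% of all windows. The Hox windows held a median of 12.5 CpG, against 6 over all windows. A match describes the letters and does not mark a bound site.

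The homeoboxes of paralog group 8 are shown because its 3 genes had separate patterns: Hoxd8 led in the metastasis lines, Hoxc8 responded to PLX4720 there, and Hoxb8 was at most 1.12 CPM in any library. They encode the DNA-binding homeodomain, and capitals mark positions that differ among the 3 genes in the GENCODE M21 transcripts (Hoxb8 on chromosome 11, 96281905 to 96285315, plus strand).
Hoxb8: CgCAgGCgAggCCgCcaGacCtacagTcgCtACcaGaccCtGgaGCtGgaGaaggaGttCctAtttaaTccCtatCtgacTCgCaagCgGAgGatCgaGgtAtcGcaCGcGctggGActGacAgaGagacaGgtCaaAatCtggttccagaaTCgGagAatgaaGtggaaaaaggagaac
Hoxc8: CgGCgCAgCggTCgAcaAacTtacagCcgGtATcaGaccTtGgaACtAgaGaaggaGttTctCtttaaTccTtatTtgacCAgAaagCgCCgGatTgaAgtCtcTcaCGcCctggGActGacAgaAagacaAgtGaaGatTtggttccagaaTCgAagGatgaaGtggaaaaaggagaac
Hoxd8: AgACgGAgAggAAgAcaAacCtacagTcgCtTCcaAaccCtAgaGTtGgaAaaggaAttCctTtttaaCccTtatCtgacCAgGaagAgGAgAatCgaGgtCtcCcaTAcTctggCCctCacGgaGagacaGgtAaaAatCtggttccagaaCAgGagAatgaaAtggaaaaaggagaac

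Over the 180 bases, 124 were the same in all 3 genes, and pairs were 73.3% (Hoxc8 and Hoxd8) to 80.6% (Hoxb8 and Hoxd8) identical. The longest run of bases shared by transcripts of any pair was 32 bases, for Hoxb8 and Hoxd8. Over all 569 pairs of Hox genes in different clusters, 17 shared a run of at least 30 bases, and the longest was 52 bases, for Hoxa6 and Hoxb4. The sources used here do not say how reads in such runs were treated.

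Metastasis and primary lines were compared under each treatment with edgeR's quasi-likelihood test, which shows whether the sites differ beyond the spread between lines. A gene was called at a Benjamini-Hochberg adjusted p under 0.05 over all genes tested. Under DMSO 22 Hox genes passed the filter on low counts and 10 were called, against 12.1% of the 14992 genes tested. In metastasis lines 9 were higher (Hoxb2, Hoxc4, Hoxc5, Hoxc6, Hoxc8, Hoxc9, Hoxd4, Hoxd8 and Hoxd9) and 1 was lower (Hoxa10), against 4.64% and 7.49% of all genes tested. A gene silent at 1 site could pass the filter only through the other site, so these counts do not describe the members as a whole. The called genes were all 5 tested Hoxc genes, all 3 tested Hoxd genes, 1 of 8 Hoxb genes and 1 of 6 Hoxa genes. In 11 tested genes, these 9 with Hoxb3 and Hoxb4, every metastasis line was above every primary line, and in 1, Hoxa10, below, against 15.3% and 17.9% of all genes tested. Among Hox genes that failed the filter, Hoxc10 and Hoxd10 also lay above every primary line and Hoxb13 below.

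Hoxd8 had the smallest adjusted p of the Hox genes: its log2 change was 10.74 ± 0.67 (SE, 3 lines per site) and its edgeR adjusted p was 0.000920. It averaged 65.1 ± 36.1 CPM in metastasis lines and 0.0352 ± 0.0151 CPM in primary lines (SD, n = 3 each). Hoxc8 averaged 15.3 ± 2.36 CPM in metastasis lines and 0.118 ± 0.182 CPM in primary lines, a log2 change of 6.95 ± 1.27 (edgeR adjusted p = 0.0180). Hoxc6 averaged 27.9 ± 7.66 CPM in metastasis lines and 0.543 ± 0.776 CPM in primary lines, a log2 change of 5.67 ± 1.28 (edgeR adjusted p = 0.0350). The SDs of the primary lines were as large as their means or larger for Hoxc6 and Hoxc8, with T3 above T1 and T2.

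The other called Hoxc genes had log2 changes of 6.71 ± 1.52 (Hoxc5, edgeR adjusted p = 0.0356), 6.42 ± 1.47 (Hoxc4, 0.0368) and 5.80 ± 1.35 (Hoxc9, 0.0389). Where a site held 3 fragments or fewer, the fitted change is not given. Hoxd9 was at least 221-fold higher in metastasis lines, taking 3 fragments over the primary group as the floor (edgeR adjusted p = 0.00461). Hoxb2 was 142-fold higher by summed fragments, with a 95% counting interval of 38.77 to 1175 (edgeR adjusted p = 0.00371). Hoxd4 was 98.8-fold higher, with an interval of 33.4 to 482 (edgeR adjusted p = 0.0174). Hoxa10 was at a ratio of 0.00741 in metastasis over primary lines, with an interval of 0.00152 to 0.0218 (edgeR adjusted p = 0.0241). These intervals and floors cover counting error only.

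Hoxb4, at 6.97 ± 1.79 CPM in metastasis lines and 0.434 ± 0.487 CPM in primary lines (SD, n = 3 each), missed the threshold under DMSO (edgeR adjusted p = 0.0600). Hoxb7 did so more widely, at 15.4 ± 13.4 CPM in metastasis lines and 0.989 ± 1.18 CPM in primary lines (edgeR adjusted p = 0.289), and M1 had none. Hoxa5 had an adjusted p of 0.492, with T1 above all other lines and T2 and T3 below M1 and M2.

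Leaving out 1 line at a time, Hoxb2, Hoxd8 and Hoxd9 were called in all 6 fits under DMSO. The Hox count was 6 without M1, 5 without M2 and 3 without M3, and 7 to 10 without 1 primary line. Each of the other 7 calls was lost in 2 to 5 of these fits, at adjusted p-values up to 0.109 (Hoxc4 without T1). With 1 line per number of the table names, Hoxa10, Hoxc4 and Hoxd4 were lost in both choices, and 7 or 8 Hox genes were called. Fibroblast, hepatocyte and mesothelial markers differed between the sites as given above, and their part in the Hox difference was not tested.

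**Figure D3:**
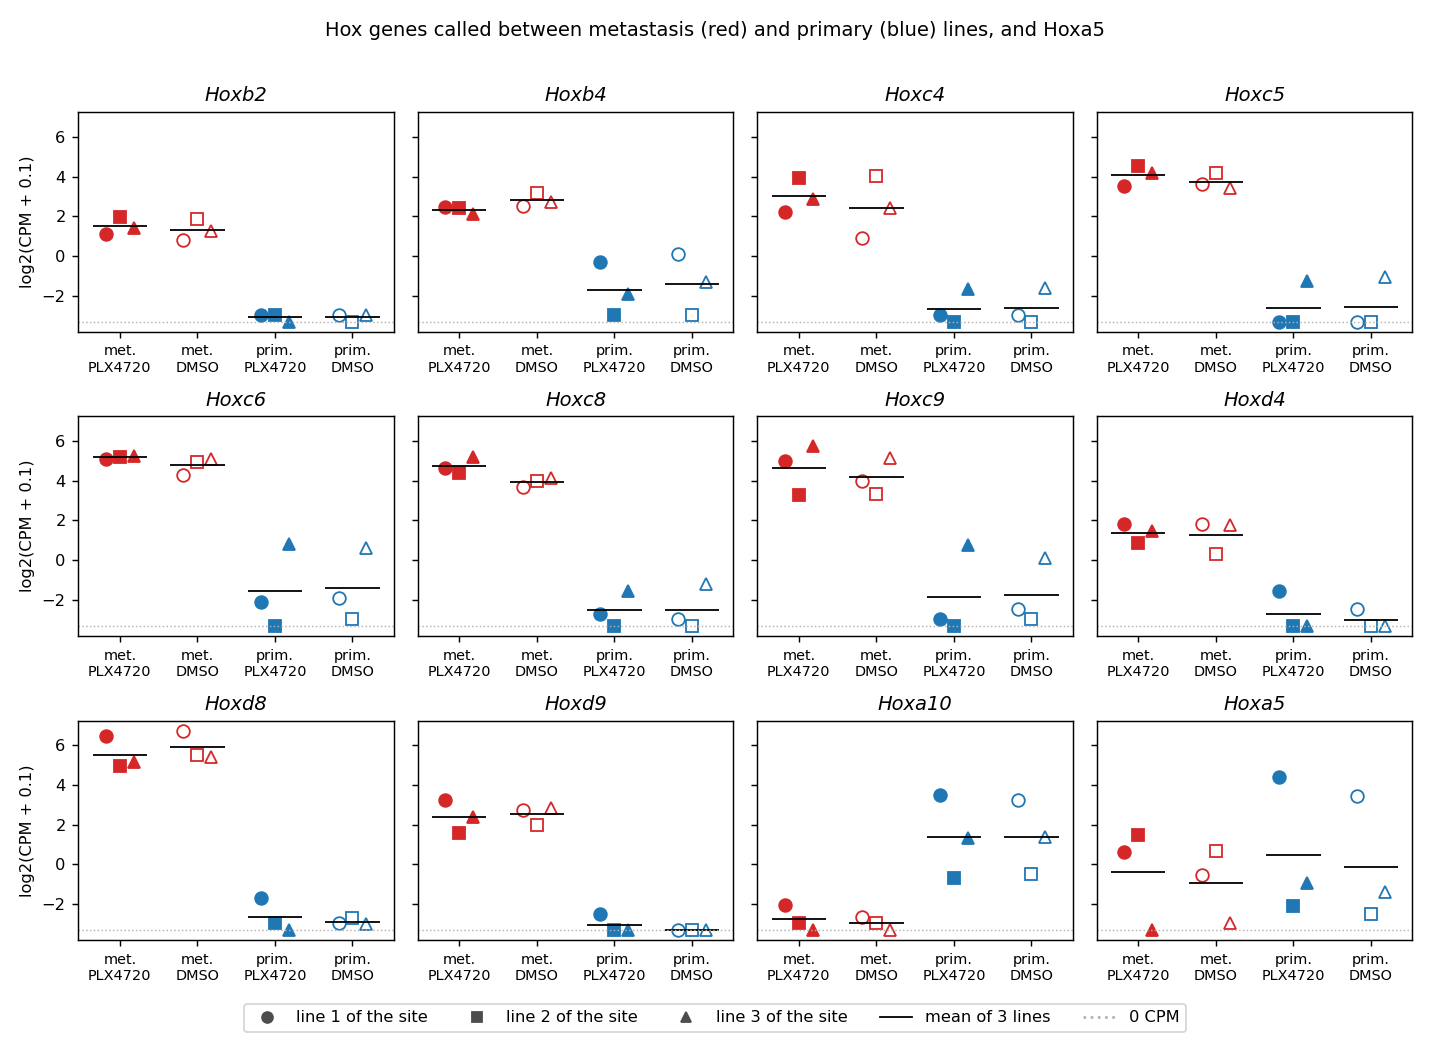
Level as log2(CPM + 0.1) of the 11 Hox genes called between sites under either treatment, and of Hoxa5. Points are single libraries (filled, PLX4720; open, DMSO; circle, square and triangle for lines 1, 2 and 3 of a site) and bars are means of 3 lines. Red metastasis points lie above blue primary points for all genes shown except Hoxa10, where they lie below, and Hoxa5, where they overlap.

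Under PLX4720, 9 of 23 tested Hox genes were called, against 13.5% of 15276 genes. In metastasis lines 8 were higher (Hoxb2, Hoxb4, Hoxc4, Hoxc5, Hoxc6, Hoxc8, Hoxd8 and Hoxd9) and 1 was lower (Hoxa10), against 5.62% and 7.88% of all genes tested. The same 11 tested genes as under DMSO lay above every primary line, and Hoxa9 and Hoxa10 lay below, against 16.6% and 18.1% of all genes tested. Of the Hox genes that failed the filter here, Hoxc10, Hoxd3 and Hoxd10 lay above and Hoxb13 below. Hoxd8 averaged 51.3 ± 32.1 CPM in metastasis lines and 0.0787 ± 0.114 CPM in primary lines (SD, n = 3 each), a log2 change of 9.29 ± 1.15 (edgeR adjusted p = 0.00531). Hoxc8 averaged 27.7 ± 7.99 CPM in metastasis lines and 0.0976 ± 0.126 CPM in primary lines, a log2 change of 8.12 ± 1.08 (edgeR adjusted p = 0.00684).

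The other called genes with more than 3 fragments at each site were Hoxc4, Hoxc5, Hoxc6, Hoxb4 and Hoxa10. Their log2 changes were 6.77 ± 1.28, 7.35 ± 1.49, 5.96 ± 1.47, 4.05 ± 1.02 and -6.28 ± 1.56 in that order, with edgeR adjusted p-values of 0.0185, 0.0236, 0.0437, 0.0465 and 0.0442. By summed fragments Hoxb2 was 157-fold higher in metastasis lines, with an interval of 43.0 to 1302, and Hoxd9 222-fold higher, with an interval of 75.5 to 1078 (edgeR adjusted p = 0.00354 and 0.0112). Hoxc9 (31.5 ± 21.9 CPM in metastasis lines and 0.543 ± 0.918 CPM in primary lines) and Hoxd4 (2.59 ± 0.863 and 0.0783 ± 0.136 CPM) missed the threshold here, at edgeR adjusted p-values of 0.0804 and 0.0520.

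Hoxb2, Hoxc8, Hoxd8 and Hoxd9 were called in all 6 fits that left out 1 line under PLX4720, where the Hox count was 5 without M2 and 6 to 9 without any other line. Hoxa10, Hoxb4 and Hoxc6 were lost in 4 or 5 of them, at adjusted p-values up to 0.159 (Hoxa10 without M2), and Hoxc4 and Hoxc5 in 2 each. With 1 line per number of the table names, Hoxa10, Hoxb4 and Hoxd9 were lost in both choices, at adjusted p-values of up to 0.204, 0.244 and 0.0668 in that order, and 7 or 8 Hox genes were called. Fibroblast markers summed to 4802 to 11860 CPM in metastasis lines and 2.23 to 28.2 CPM in primary lines under PLX4720, and their part in the result was not tested.

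PLX4720 was compared with DMSO within lines, which asks whether blocking BRAF moves the Hox pattern, in 1 fit of all 12 libraries with 26 Hox genes tested. The leading gene per kb of exon was Hoxd8 in M1 under both treatments. It was Hoxc6 in M2 (15.0 CPM per kb) and Hoxc9 in M3 (22.0 CPM per kb) under PLX4720, against Hoxd8 in both under DMSO. Hoxa5 in T1 and Hoxb6 in T2 and T3 led under both treatments. Over all 6 lines 1 Hox gene was called, Hoxa5, against 27.2% of 16555 genes tested (14.5% higher and 12.7% lower). Hoxa5 rose with PLX4720 (log2 change 0.92 ± 0.20, edgeR adjusted p = 0.0106), and was higher under PLX4720 in 5 of 6 lines. The exception was M3, with no fragment under PLX4720 and 1 under DMSO. Without T1 the call was lost (log2 change 0.81, adjusted p = 0.138), and so it was with DESeq2 (log2 change 0.87, adjusted p = 0.0614) and without the cell line block.

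In metastasis lines 2 of 26 Hox genes were called, both higher under PLX4720, against 20.4% of genes tested, made of 12.0% called higher and 8.36% called lower. Hoxc8 measured 25.3, 21.2 and 36.6 CPM in M1, M2 and M3 under PLX4720, against 12.6, 15.9 and 17.2 CPM under DMSO. It was higher in all 3 lines and the treatments did not overlap. The log2 change was 0.84 ± 0.17 (edgeR adjusted p = 0.0117). Hoxa5 had a log2 change of 0.99 ± 0.29 (edgeR adjusted p = 0.0419), with 53 fragments in M1 and 90 in M2 under PLX4720, against 20 and 50 under DMSO. The Hoxc8 call was lost without M3 (log2 change 0.68, adjusted p = 0.0643). The Hoxa5 call was lost without any line but M3, at adjusted p-values of up to 0.181 (without M1), and with DESeq2 (adjusted p = 0.228). In the same lines fibroblast markers summed to 4802 to 11860 CPM under PLX4720 and 2217 to 5341 CPM under DMSO, and Col1a1 measured 549, 638 and 179 CPM in M1, M2 and M3 under PLX4720, against 63.9, 32.4 and 4.99 CPM under DMSO. The mitochondrial share was 0.505%, 0.597% and 0.455% in M1, M2 and M3 under PLX4720, against 0.189%, 0.409% and 0.373% under DMSO. The part of either in the Hox changes was not tested.

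Among tested genes, 6 were higher under PLX4720 in all 3 metastasis lines (Hoxa3, Hoxb2, Hoxc6, Hoxc8 and Hoxc10 among them), against 26.8% of all genes, and Hoxb4 and Hoxd8 were lower in all 3, against 23.2%. Hoxc6 measured 34.5, 36.1 and 37.6 CPM in M1, M2 and M3 under PLX4720, against 19.2, 31.0 and 33.6 CPM under DMSO, and did not pass the test (log2 change 0.41 ± 0.16, edgeR adjusted p = 0.116). Hoxc10 had a log2 change of 0.73 ± 0.25 (adjusted p = 0.0837). For Hoxd8 the log2 change was -0.38 ± 0.16 (adjusted p = 0.128) and for Hoxb4 -0.49 ± 0.19 (adjusted p = 0.106), so neither passed with edgeR, while DESeq2 called Hoxd8 lower (adjusted p = 0.0455). In M1 the Hoxc genes measured 117 CPM in sum under PLX4720 and 66.8 CPM under DMSO, and the Hoxd genes 101 and 117 CPM. The Hoxc sums were 105 and 91.1 CPM in M2 and 159 and 107 CPM in M3, and the Hoxd sums 35.5 and 50.6 CPM in M2 and 43.2 and 53.8 CPM in M3, PLX4720 given before DMSO.

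**Figure D4:**
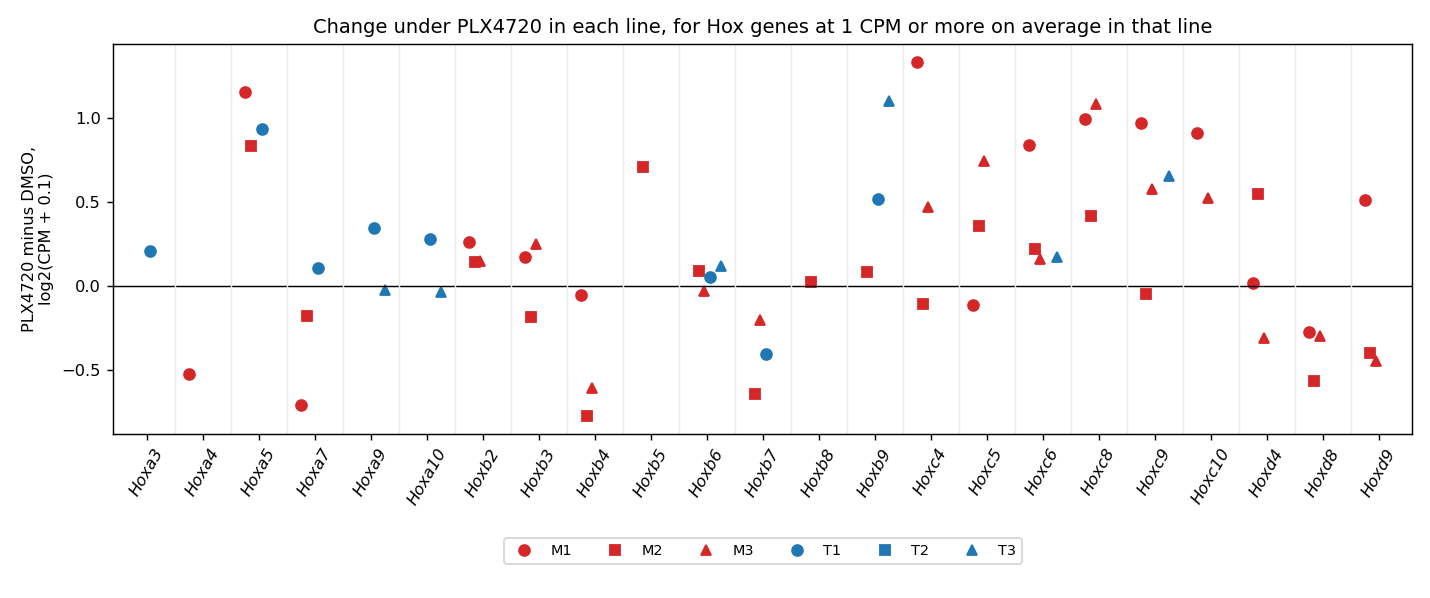
Change under PLX4720 in each line, as log2(CPM + 0.1) under PLX4720 minus that under DMSO, for 23 tested Hox genes (paralogs 2 to 13) in the lines where they averaged 1 CPM or more (61 points, red for metastasis and blue for primary lines). Hoxc8 lies above 0 and Hoxd8 below 0 in all 3 metastasis lines, while Hoxa5 lies above 0 in each line shown.

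In primary lines no Hox gene was called by edgeR, against 8.23% of genes tested (4.46% higher and 3.77% lower), with 1 (Hoxa5) at an unadjusted p under 0.05, and none by DESeq2. Hoxa5 measured 21.02 CPM in T1 under PLX4720, against 10.9 CPM under DMSO, and had a log2 change over the 3 primary lines of 0.85 ± 0.27 (edgeR adjusted p = 0.0898). The Hoxa sums in T1 were 45.7 CPM under PLX4720 and 31.0 CPM under DMSO. No Hox gene differed between the sites in its PLX4720 change by the edgeR interaction contrast, against 2.94% of genes tested (1.85% higher and 1.09% lower), and none did at an unadjusted p under 0.05 or by DESeq2. For Hoxa5 this difference was 0.13 ± 0.40 on the log2 scale (metastasis minus primary), and for Hoxc8 1.08 ± 0.58 (adjusted p = 0.475). A call in metastasis lines and none in primary lines is thus not shown to be a difference between them.

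Cofactors of Hox proteins were present at both sites. Of 9 TALE homeodomain genes (Pbx, Meis and Pknox), 8 were tested between sites under DMSO, of which 1 was higher in metastasis lines and 2 were lower, against 4.64% and 7.49% of all genes tested. Meis1 measured 20.04, 14.2 and 3.48 CPM in M1, M2 and M3 under DMSO, against 1.81, 1.97 and 1.964 CPM in T1, T2 and T3, a log2 change of 2.73 ± 0.66 (edgeR adjusted p = 0.0440). Pbx4 (-2.12 ± 0.49, adjusted p = 0.0387) and Meis3 (0, 0 and 0.0290 CPM in M1, M2 and M3, against 1.56, 10.1 and 1.03 CPM in T1, T2 and T3) were lower. Under PLX4720 Meis1 was 1 of 3 TALE genes of 9 tested that rose over all 6 lines, against 14.5% of all genes tested, with a change of 0.75 ± 0.11 (log2, edgeR adjusted p = 0.00181), and Pbx4 was another (0.79 ± 0.21, adjusted p = 0.0221). Pknox2 measured 0.684, 10.6 and 0.9302 CPM in M1, M2 and M3 under PLX4720, against 0.0895, 3.60 and 0.0871 CPM under DMSO. In T1 it was 0 under PLX4720 and 0.473 CPM under DMSO, and it had no fragment in T2 and T3. It rose in metastasis lines (log2 change 2.09 ± 0.38, edgeR adjusted p = 0.0101), and it was the 1 TALE gene called for a difference between sites in its PLX4720 change (adjusted p = 0.0370).

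Genes of the complexes that maintain Hox states were compared too. Of 23 Polycomb genes tested under DMSO, 2 were higher in metastasis lines, Phf19 (log2 change 2.30 ± 0.46, edgeR adjusted p = 0.0241) and Cbx6 (1.15 ± 0.23, adjusted p = 0.0243). Of 15 MLL and Trithorax genes, 1 was lower, Aff1 (-1.07 ± 0.20, adjusted p = 0.0189). Over all genes tested, 4.64% were higher and 7.49% lower. Under PLX4720 over all 6 lines, 2 Polycomb genes rose (Phc3 among them) and 6 fell (Suz12, Eed, Mtf2, Phf19, Pcgf6 and Phc2), while 2 MLL and Trithorax genes rose (Mllt3 and Aff1) and 2 fell (Wdr5 and Dpy30), against 14.5% of all genes tested that rose and 12.7% that fell. The median log2 change was 0.01 over the Polycomb genes, 0.01 over the MLL and Trithorax genes and 0.03 over all genes tested.

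Genes known to act upstream of Hox clusters include those of retinoic acid signalling and the Cdx factors. Of 12 tested under DMSO, 2 were higher in metastasis lines (Rarg and Egr2) and 5 were lower (Cdx2, Rara, Cyp26b1, Aldh1a1 and Aldh1a3), against 4.64% and 7.49% of all genes tested. The other 5 were not called. Cdx2, a caudal-type activator of posterior Hox genes, measured 0, 0.0297 and 0.0290 CPM in M1, M2 and M3 under DMSO, against 55.8, 23.8 and 11.8 CPM in T1, T2 and T3 (edgeR adjusted p = 0.00268). Aldh1a1, an enzyme that makes retinoic acid, measured 0.268, 0.0595 and 0.261 CPM in M1, M2 and M3, against 606, 74.3 and 29.99 CPM in T1, T2 and T3 (edgeR adjusted p = 0.0112). Rarg, a retinoic acid receptor, measured 162, 76.0 and 46.1 CPM in M1, M2 and M3, against 18.4, 26.0 and 28.1 CPM in T1, T2 and T3. The groups did not overlap for these 3 genes.

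With PLX4720 over all 6 lines, 6 of 14 tested upstream genes rose (Rara, Rarb, Rxra, Cyp26b1 and Aldh1a1 among them) and 1, Gmnn, fell, against 14.5% and 12.7% of all genes tested. Rarb, a retinoic acid receptor that is itself induced by retinoic acid, measured 5.69, 5.30 and 0.872 CPM in M1, M2 and M3 under PLX4720, against 1.88, 2.74 and 0.261 CPM under DMSO. In T1, T2 and T3 it measured 52.7, 0.436 and 0.588 CPM under PLX4720, against 15.0, 0.342 and 0.428 CPM under DMSO. Its log2 change was 1.30 ± 0.22 (edgeR adjusted p = 0.00358), and that of Aldh1a1 was 1.63 ± 0.25 (adjusted p = 0.00252). T1 was the line with the highest Rarb and Aldh1a1 and also with the highest Hoxa5. Under DMSO, Rarb and Hoxa5 were higher in M1 and M2 than in T2 and T3, while Aldh1a1 was lower. A link among these genes was not tested.

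Other genes annotated within the clusters, or known noncoding genes beside them, were examined beside the Hox genes. Of 47 such genes 7 were tested between sites under DMSO, and 2 were higher in metastasis lines, the antisense genes Hoxb3os and Hoxd3os1, against 4.64% of all genes tested. Hoxd3os1 (chromosome 2, 74703248 to 74716130) had 187, 66 and 115 fragments in M1, M2 and M3 under DMSO, against 3 in T1 and 0 in T2 and T3. Hotairm1, an antisense gene of the Hoxa cluster, had 88, 43 and 23 fragments in M1, M2 and M3, against 78, 1 and 3 in T1, T2 and T3. Of the 24 protein-coding genes that flank the clusters, 19 were tested under DMSO and none was called by edgeR, against 12.1% of all genes tested, with 4 at an unadjusted p under 0.05 and 2 called by DESeq2. The median log2 change was 0.05 over the flanking genes, against 0.000826 over all genes tested. Under PLX4720 Atp5g2 was higher in metastasis lines and Hnrnpa3 lower among these 19.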

How the data were processed

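RNA of 6 mouse lines (12 libraries) was sequenced after removal of ribosomal RNA with a stranded kit, per the labels' protocols. Per the file headers, the authors made the deposited counts, whole fragments per gene and not normalized, with featureCounts 1.5.2 on exons of Ensembl 84 (GRCm38), for pairs with both ends mapped and with no strand option. The aligner was not given in the sources used here. Symbols were matched for 47310 of 47729 genes.

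From the counts, edgeR 4.0.16 (R 4.3.3) was run with filterByExpr, TMM scaling, the quasi-likelihood test and Benjamini-Hochberg adjustment over all genes tested. PLX4720 and DMSO were compared in 1 fit of 12 libraries blocked on cell line, with 1 treatment term per site, leaving 4 residual degrees of freedom. Sites were compared on 6 libraries per treatment, also with 4. The labels name the line. With group means subtracted, the 2 libraries of a line gave correlations of 0.839 to 0.923. Pairing M1 with T1, M2 with T2 and M3 with T3 within a treatment gave -0.0982 to 0.0120. These pairs follow the replicate number and not the number in the table names, and T3 was not compared with M2. SEs are the fitted change over the root of the F statistic and are approximate for low counts. Changes per line use a pseudocount of 0.1 CPM. No pair of libraries of a group agreed within counting noise (smallest chi-square per degree of freedom 142). Scripts were tested on simulated data. Alternatives were DESeq2 1.42.0, RLE factors, no filter, the block left out or added, each site alone, each line left out and plain library totals. Members and gene lists were chosen with earlier results of these data known. Hox genes called in any comparison, or most abundant per kb in their cluster, are named with the level in every DMSO library. For part of them the PLX4720 libraries are given too. Lists are given by their counts and smallest p-values. P-values between sites measure the spread between lines, and those for PLX4720 measure how far the change within lines varies from line to line. The labels do not state that the lines are independent. Single values of some genes in these lists are not reported here.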

Additional observations from a re-analysis of the deposited data

How the results depend on the processing

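Over the alternatives run, 312 site changes were refitted for the 13 tested Hox genes without overlap between sites under 1 or both treatments. All kept their direction, which was close to fixed in advance because the sites were already separated for these genes in the same data. Of these changes 59 lost a call and 16 gained one. Of 138 refitted changes with PLX4720, 13 lost a call, 5 gained one and 1 reversed. That was the difference between sites for Hoxa5, 0.13 as reported and -0.0735 to 0.26 on the log2 scale when each line was left out, the lowest without M1. Levels from plain library totals moved no cluster sum by more than the SD between lines.

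The number of Hox genes called between sites under DMSO was 10, and 3 to 10 with each line left out. Under PLX4720 it was 9, and 14 with DESeq2 and 5 to 9 with each line left out. With PLX4720 over all 6 lines it was 1, and 0 with DESeq2, 0 without the cell line block and 0 to 2 with each line left out. In primary lines it was 0, and 1 (Hoxa5) when those libraries were fitted alone. In metastasis lines it was 2, and 1 when fitted alone, 0 without the block and 1 to 2 with each line left out. The cause of these shifts was not tested. RLE size factors and omission of the low-count filter changed none of the 6 counts by over 1.5 times. Adding replicate number as a block to the site fits gave 8 calls under DMSO and 9 under PLX4720, although the numbers do not pair the lines.

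Counts over all genes moved by over 1.5 times too. Without the block they were 18 over all lines (4496 as reported), 1 in primary lines (1362), 15 in metastasis lines (3378) and 0 for the difference between sites (487). Fitted alone, primary lines gave 2491 and metastasis lines 2195. Without the filter, primary lines gave 2052 and the difference 996, for which DESeq2 gave 898. Between sites DESeq2 gave 3304 under DMSO (1819 as reported) and 3572 under PLX4720 (2061), the replicate block gave 1106 under DMSO, and 1 line per number of the table names, an alternative added after the data were seen, gave 651 to 1014 under DMSO and 632 to 1093 under PLX4720. With each line left out the counts ran from 2417 to 4384 over all lines, 91 to 2252 in primary lines, 1891 to 3090 in metastasis lines, 122 to 798 for the difference, and 901 to 1595 and 1097 to 1712 between sites under DMSO and PLX4720. The 3 lines per site and the few fragments of low Hox genes, 75 in the DMSO library of T2, limit what can be told apart.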

Other observations

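Counts of other genes were also read where single metastasis lines had little Hox RNA. In M1, which had at most 2 fragments of each gene from Hoxb5 to Hoxb9, the antisense gene Hoxb5os had 0 fragments under both treatments. Hoxb5os had 36 in M2 and 22 in M3 under PLX4720, and 22 and 19 under DMSO. In M3, which had at most 1 fragment of each gene from Hoxa3 to Hoxa13, Hoxaas3 had 0 fragments under PLX4720 and 2 under DMSO. Hoxaas3 had 50 in M1 and 20 in M2 under PLX4720, and 63 and 13 under DMSO. Gm15050, an antisense gene on chromosome 6 (GRCm38, 52172881 to 52174059), kept 10 fragments in M3 under PLX4720 and 9 under DMSO. It had 46 in M1 and 27 in M2 under PLX4720, and 30 and 7 under DMSO. Hotairm1, at the anterior edge of the Hoxa cluster, kept 30 fragments in M3 under PLX4720 and 23 under DMSO. The 5730596B20Rik gene, inside the Hoxa cluster, had 72 fragments in T1 under PLX4720 and 64 under DMSO, and at most 9 in any other library.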
